A study of Mus musculus with 18 samples.

Results

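The microRNAs miR-26a and miR-26b were followed across sperm small RNA libraries of ICR mice, an outbred strain. They were taken by name: every listed ID of mmu-miR-26a and mmu-miR-26b, whatever its arm or copy suffix. This gave 5 IDs of the 1739 known miRNA IDs listed, 3 of miR-26a (mmu-miR-26a-5p, mmu-miR-26a-1-3p and mmu-miR-26a-2-3p) and 2 of miR-26b (mmu-miR-26b-5p and mmu-miR-26b-3p). All 5 passed the filter of at least 1 TPM in at least 3 libraries. TPM here is the read count per 1000000 reads of the library, with no term for length. They were chosen by the F2 levels of miR-26a-5p, which stood apart between F2 NHS and F2 Con in an earlier look at these data. Values of that comparison are therefore given as a description, with no test.

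The groups were F0 NHS, F0 Con, F1 NHS, F1 Con, F2 NHS and F2 Con. F0 NHS males were exposed to NH3 (ammonia) and H2S (hydrogen sulphide) together for 5 weeks, starting at 3 weeks of age, and mated to normal females. The sources give no dose and no group for either gas alone, so their parts cannot be told apart. F1 NHS males were the untreated sons of that line, mated at 8 weeks of age to normal females, and F2 NHS males were its untreated grandsons. The Con males of each generation were the controls, and the F1 Con males have the same mating age of 8 weeks as the F1 NHS males. Each group had 3 libraries, and nothing in the labels ties a library to a separate animal or pool. The p-values thus measure the spread between libraries, which may be technical. The labels name sperm as the tissue and the design names semen as what was collected.

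The lists of F1 NHS replicates 1 and 3 end before the miRNAs, so 16 libraries were used and F1 NHS is replicate 2 alone. These 16 held 18072900 to 29430555 reads each. Known miRNAs took 31.2% to 52.6% of the reads in the NHS libraries and 13.3% to 57.4% in the Con libraries, lowest in F1 Con (13.3% to 32.6%). The germ cell marker miRNAs, 14 of 14 found, summed to 1.52% to 15.5% of miRNA reads over the 16 libraries. Smooth muscle miRNAs summed to 3.43% to 41.8%, red blood cell miRNAs to 2.17% to 15.5%, epithelial and epididymal miRNAs to 2.86% to 6.46% and leukocyte miRNAs to 0.104% to 1.498%. No marker of any of these lists was at 0 in all libraries. Fewer cells of a type and less RNA per cell cannot be told apart in such bulk samples. In 6 libraries, an entry with a tRNA-Ala sequence that is listed as a predicted miRNA stood at 2378 to 18720 TPM, against 42.9 to 223 TPM in the other 10. The 6 were F0 NHS replicate 3, F0 Con replicate 2, F1 NHS replicate 2, F2 NHS replicate 1 and F2 Con replicates 1 and 2. They are called the tRNA-Ala-high libraries from here on. F1 NHS thus lies wholly within this set and F1 Con wholly outside it, so within F1 the set and the comparison cannot be told apart. A term for the set, fitted over all 6 groups, takes its size from the F0 and F2 libraries and assumes the same size in F1.

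A microRNA is cut from a hairpin transcript, and each side of the hairpin, the 5p arm and the 3p arm, can yield a mature strand. Usually 1 strand is loaded into an Argonaute protein and the other is degraded, and the loaded strand finds its mRNA targets mainly through its seed, bases 2 to 8. miR-26 is made from hairpins that lie within the CTD small phosphatase genes (Ctdspl, Ctdsp2, Ctdsp1). Its 5p strand is the usual guide and is known to repress Ezh2, the histone H3 lysine 27 methyltransferase of Polycomb repressive complex 2, and the DNA demethylation genes of the Tet family and Tdg. Sperm carries miRNAs from spermatogenesis and takes up more of them in the epididymis.

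The mature sequences are shown first because the comparisons turn on which arm the reads were assigned to, and on which arms share a seed. They come from RefSeq on GRCm38.p6, and all 5 IDs matched. They are written 5′ to 3′ with the seed in capitals.
miR-26a-5p: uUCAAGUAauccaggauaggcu
miR-26b-5p: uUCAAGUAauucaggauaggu
miR-26a-1-3p: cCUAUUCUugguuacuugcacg
miR-26a-2-3p: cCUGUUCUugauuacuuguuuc
miR-26b-3p: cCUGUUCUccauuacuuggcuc

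The 5p strands carry the same seed and differ, over the 21 bases they have in common, by C11U and C21U, counted from 1 at the 5′ end with the base of miR-26a-5p first. Of 1679 mature mouse miRNAs searched, these 2 alone had this seed. miR-26a-2-3p and miR-26b-3p share another seed and differ at 4 of 22 bases. The other mouse miRNAs with that seed, miR-7039-3p and miR-6932-3p, reached at most 0.157 and 0.277 TPM in any library. The seed of miR-26a-1-3p was found in no other mature miRNA. Reads of the 3p arms thus carry other seeds than reads of the 5p arms.

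The 3 hairpins below show how 5 IDs come from 3 loci. The mature strands are in capitals, the 5p strand first.
Mir26a-1: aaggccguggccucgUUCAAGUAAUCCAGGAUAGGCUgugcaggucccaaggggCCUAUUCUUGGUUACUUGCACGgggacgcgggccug
Mir26a-2: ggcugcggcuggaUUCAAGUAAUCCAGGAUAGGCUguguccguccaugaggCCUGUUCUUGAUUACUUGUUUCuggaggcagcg
Mir26b: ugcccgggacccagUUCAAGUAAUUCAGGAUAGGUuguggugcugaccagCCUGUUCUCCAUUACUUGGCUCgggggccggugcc

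Mir26a-1 lies at chr9:119031796-119031885 on the plus strand of GRCm38, in an intron of Ctdspl. Mir26a-2 lies at chr10:126995530-126995613 on the plus strand, within Ctdsp2, where some annotated transcripts hold it in an exon. Mir26b lies at chr1:74394310-74394394 on the plus strand, in an intron of Ctdsp1. The 5p strand of Mir26a-1 and Mir26a-2 is the same, so miR-26a-5p reads cannot be assigned to either locus, whereas the 3p strands can. Each of the 5 IDs had at least 523 reads in every library, and the widest 95% Wilson interval of any 5p share was 1.29 percentage points. Counting error is thus small beside the differences between libraries, and such intervals cover counting error only.

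In every library a single miR-26a ID held most of the miR-26a reads, but it was not the same ID from library to library. The leading ID held 77.8% to 93.0% of the reads, with a median of 84.7% over the 16 libraries. It was miR-26a-5p in 8 libraries, miR-26a-1-3p in 5 and miR-26a-2-3p in 3. For miR-26b the leading ID was the 5p in 8 libraries and the 3p in 8, and it held 50.8% to 98.2% of the reads (median 85.7%). Both names were led by a 5p ID in 4 libraries and both by a 3p ID in 4, and in the other 8 the leading arms differed.

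**Figure D1:**
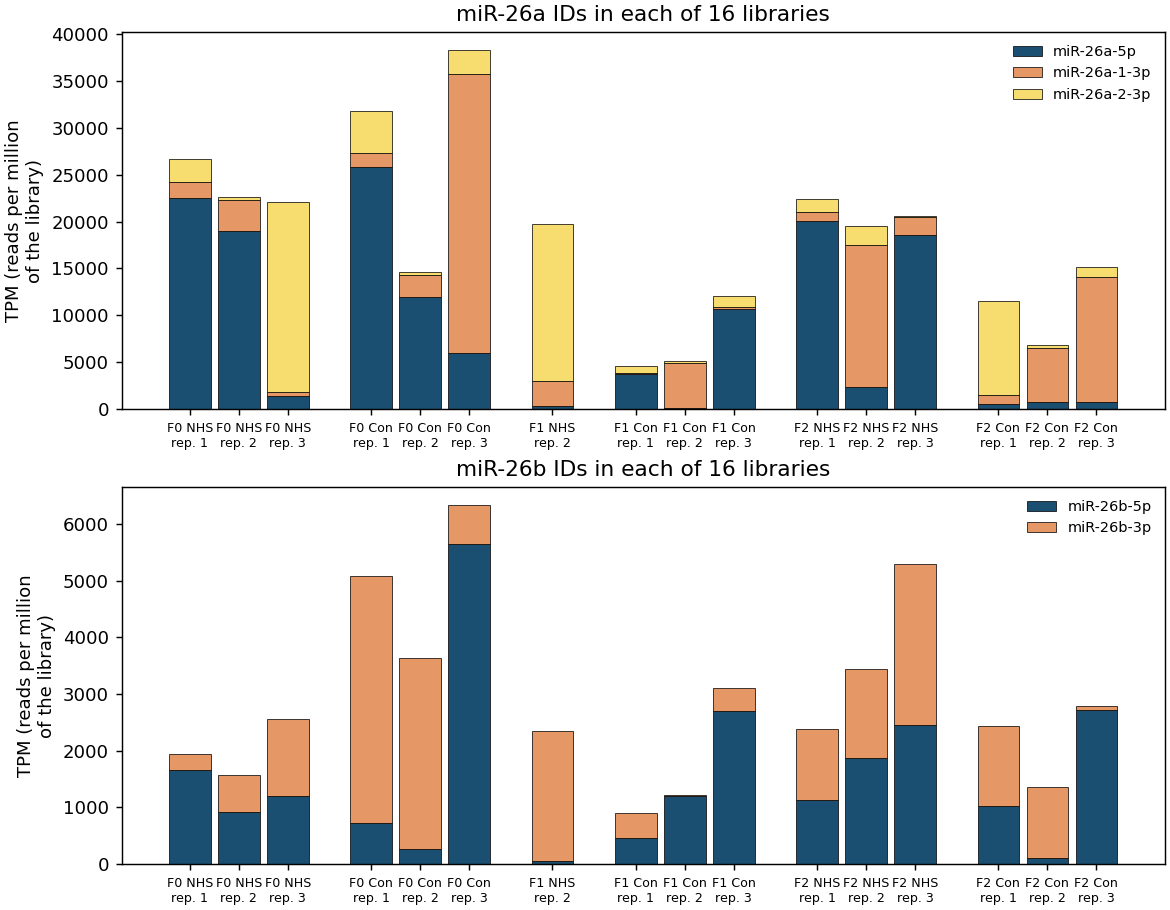
Stacked bars give the TPM of each miR-26a ID (top) and each miR-26b ID (bottom) in each of the 16 libraries, with the 5p arm in dark blue. The bars of 1 group have similar heights more often than similar colours: the leading miR-26a ID was miR-26a-5p in 8 libraries, miR-26a-1-3p in 5 and miR-26a-2-3p in 3.

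The leading ID differed in part between the tRNA-Ala-high libraries and the other 10. miR-26b was led by its 3p ID in 6 of the 6 tRNA-Ala-high libraries and in 2 of the other 10, although in 3 of the 6 the 3p held only 52.6%, 53.2% and 57.9% of the reads. miR-26a-2-3p led in 3 of the 6 and in 0 of the 10, miR-26a-5p in 2 of the 6 and in 6 of the 10, and miR-26a-1-3p in 1 of the 6 and in 4 of the 10. So the 3p IDs of miR-26a did not all go one way. These are descriptions, since the set was drawn from the data. Values without these libraries, or with a term for them, are given with the results below.

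A changing leading ID was common among the other miRNAs. Of 116 precursor names with at least 2 IDs and at least 1000 reads in every library, 72 (62.1%) had a leading ID that was not the same in all 16 libraries, and in 44 a single ID led throughout. The most frequent leader led in 11 libraries at the median of the 116, and in at most 8 for 17 of them. The 5p share, the percent of a name's reads that fall on its 5p IDs, ranged over 65.1 percentage points at the median of 205 names with at least 100 reads. It ranged over 88.5 points for miR-26a and 95.7 for miR-26b, and 34 of the 205 names had a range at least as wide as that of miR-26a. How reads were assigned to arms and copies is not given in the sources used here. The part of that step in the values by arm, by 5p share and by seed was not tested.

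Summed over arms, both miRNAs were steadier than their single IDs. The SD of log2 TPM within groups, pooled over the 5 groups with 3 libraries, was 0.55 for the miR-26a sum, against 2.12 for miR-26a-5p, 2.24 for miR-26a-1-3p and 2.28 for miR-26a-2-3p. It was 0.60 for the miR-26b sum, against 1.62 for miR-26b-5p and 1.81 for miR-26b-3p. Among precursor names ordered by reads, miR-26a held places 3 to 9 in the 16 libraries and miR-26b places 19 to 42. The sums are given first for each comparison, and then the arms.

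F0 NHS against F0 Con compares males that were themselves exposed with their controls. The miR-26a sum was 26729, 22616 and 22053 TPM in F0 NHS replicates 1 to 3, against 31808, 14604 and 38294 TPM in F0 Con. The F0 NHS values lay inside the range of the F0 Con values. The log2 fold change was -0.17 (SE 0.36), with an adjusted p of 0.877 by edgeR's quasi-likelihood test with Benjamini-Hochberg adjustment, the test behind every adjusted p of a level below unless another is named.

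The miR-26b sum was 1936, 1568 and 2564 TPM in F0 NHS, against 5076, 3644 and 6333 TPM in F0 Con. Every F0 NHS library was below every F0 Con library, at 2023 ± 504 TPM and 5018 ± 1346 TPM (SD, n = 3 each). As a percent of known miRNA reads the groups did not overlap either, at 0.463%, 0.431% and 0.487% in F0 NHS and 0.980%, 0.898% and 1.10% in F0 Con. Of the 461 names tested, 5.21% showed TPM values in F0 NHS all below those of F0 Con, and 4.34% did so in percent of miRNA reads. The log2 fold change was -1.31 (SE 0.38). Its unadjusted p was 0.00345 and its adjusted p over the 461 names was 0.416, so it did not pass the threshold of 0.05. With DESeq2 its adjusted p was 0.0674, and over all other settings tried, with 1 library left out included, it lay between 0.208 and 0.6998. Without the tRNA-Ala-high libraries, which leaves 2 against 2, the log2 fold change was -1.41 (SE 0.50, adjusted p 0.319). In this comparison 0% of the 461 names were called by edgeR, with 39 at an unadjusted p under 0.05, and 0.658% were called by DESeq2.

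**Figure D2:**
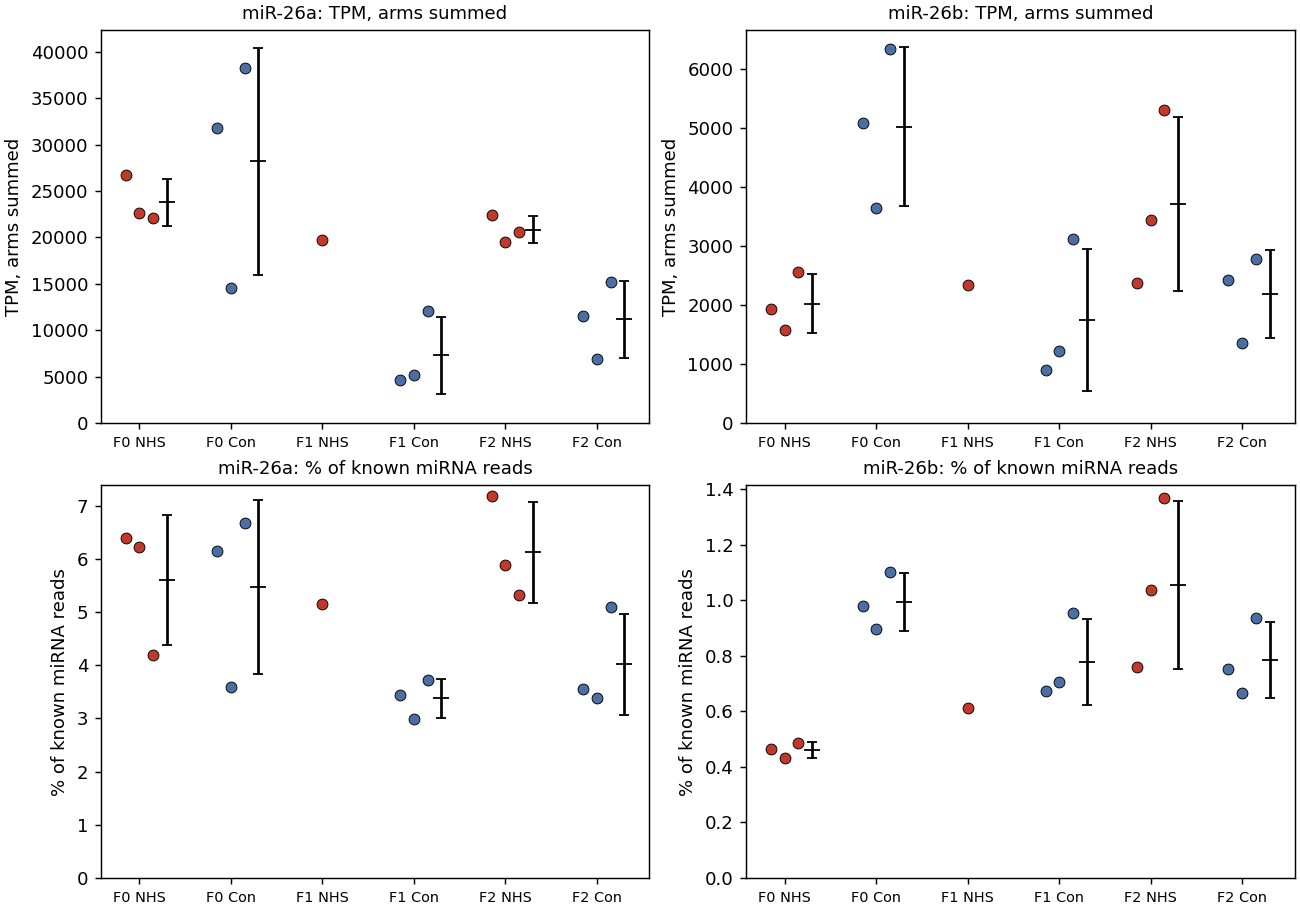
Points are libraries, bars mean ± SD of the groups with 3 libraries, and the vertical axes give the summed arms of miR-26a (left) and miR-26b (right) in TPM (top) and in percent of known miRNA reads (bottom). The 3 F0 NHS libraries lie at 0.431% to 0.487% of miRNA reads for miR-26b, below the 3 F0 Con libraries at 0.898% to 1.10%.

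By arm, the F0 libraries varied within each group as widely as between groups. miR-26a-5p was at 22551, 19019 and 1421 TPM in F0 NHS, against 25791, 11949 and 5926 TPM in F0 Con. F0 NHS replicate 3, a tRNA-Ala-high library, had 20260 TPM of miR-26a-2-3p, and F0 Con replicate 3 had 29793 TPM of miR-26a-1-3p. The other F0 libraries had 329 to 2454 TPM of miR-26a-2-3p in F0 NHS and 263 to 4511 TPM in F0 Con. miR-26b-5p was at 1659, 919 and 1200 TPM in F0 NHS, against 722, 267 and 5649 TPM in F0 Con. miR-26b-3p was at 278, 649 and 1364 TPM in F0 NHS, against 4354, 3377 and 685 TPM in F0 Con. For both arms of miR-26b the groups overlapped, although their sums did not. The log2 fold changes of the 5 IDs ran between -2.27 (miR-26a-1-3p, SE 1.58) and 1.46 (miR-26a-2-3p, SE 1.39), with adjusted p-values of 0.735 to 0.982. Over all 735 IDs tested, edgeR called 0% in F0, with 45 at an unadjusted p under 0.05, and DESeq2 called 0.138%.

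The 5p share of miR-26a was 84.4%, 84.1% and 6.44% in F0 NHS, against 81.1%, 81.8% and 15.5% in F0 Con. In each group 2 libraries were above 80% and 1 was far below. The means differed by -1.16 percentage points (exact two-sided permutation p 1). For miR-26b it was 85.7%, 58.6% and 46.8% in F0 NHS and 14.2%, 7.33% and 89.2% in F0 Con, a difference of 26.8 points (exact permutation p 0.4, adjusted over 6 share tests 0.75). With 3 libraries against 3 the smallest p this test can give is 0.1.

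Since miR-26a and miR-26b are read in the same library, their ratio does not depend on the library's total. This measure was chosen after the levels were seen, and the miR-26b sums alone already stood apart between the F0 groups. The ratio is thus not a separate difference. How many other pairs of names have a ratio without overlap in F0 was not counted. There were 13.8, 14.4 and 8.60 miR-26a reads per miR-26b read in F0 NHS, against 6.27, 4.01 and 6.05 in F0 Con, and the groups did not overlap. On the log2 scale the difference of the means was 1.17, with an exact permutation p of 0.1, the smallest possible, and 0.3 after adjustment over 3 contrasts. Without the tRNA-Ala-high libraries it was 1.20 with 2 libraries against 2.

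**Figure D3:**
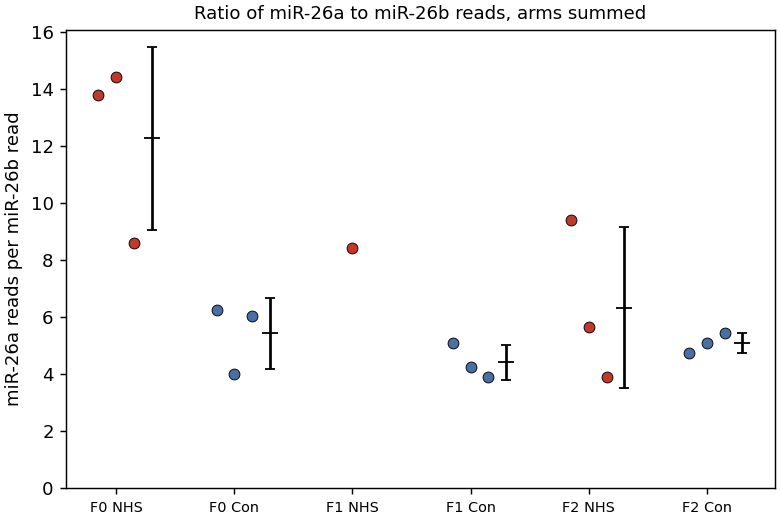
Points are libraries, bars mean ± SD of the groups with 3 libraries, and the vertical axis gives miR-26a reads per miR-26b read with arms summed. The 3 F0 NHS libraries lie at 8.60 to 14.4, above the 3 F0 Con libraries at 4.01 to 6.27, while F2 NHS (3.89 to 9.42) overlaps F2 Con (4.74 to 5.45). The share of other name pairs that lie apart in this way was not counted.

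The F1 comparison sets unexposed sons of the exposed line against controls of their generation and rests on 1 F1 NHS library, whose spread is taken to be that of the other groups. The miR-26a sum was 19730 TPM in F1 NHS, against 4586, 5147 and 12099 TPM in F1 Con. The F1 NHS value was above all 3 F1 Con values, and so it was in percent of miRNA reads, at 5.15% in F1 NHS against 2.98% to 3.71% in F1 Con. Of the 461 names, 44.5% lay above all F1 Con libraries in TPM and 19.7% did so in percent of miRNA reads. The log2 fold change was 1.11 (SE 0.48), with an adjusted p of 0.439. The miR-26b sum was 2345 TPM in F1 NHS, against 898, 1216 and 3115 TPM in F1 Con, with a log2 fold change of 0.13 (SE 0.52, adjusted p 0.926). As a percent of miRNA reads it was 0.612% in F1 NHS, below the 0.674% to 0.956% of F1 Con, as 39% of the names were on that scale, so its place depends on what the reads are set against. Its sign turned in some settings. edgeR called 0% of the 461 names in F1, with 45 at an unadjusted p under 0.05, and DESeq2 called 1.32%. With the term for the tRNA-Ala-high set the log2 fold change was 1.35 for miR-26a (SE 0.57, adjusted p 0.483) and 0.28 for miR-26b (SE 0.63, adjusted p 0.874). The F1 NHS library also lay outside the F1 Con range for 3 marker lists, in percent of miRNA reads. Germ cell miRNAs summed to 6.25% in F1 NHS and 11.1% to 14.0% in F1 Con, smooth muscle miRNAs to 8.22% in F1 NHS and 3.43% to 7.26% in F1 Con, and red blood cell miRNAs to 15.5% in F1 NHS and 9.60% to 12.9% in F1 Con. Their part in the miR-26 values was not tested.

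By arm, the 5p took a small share of the reads of both names in the F1 NHS library. miR-26a-5p was at 331 TPM in F1 NHS, against 3748, 88.8 and 10630 TPM in F1 Con, and miR-26a-2-3p was at 16781 TPM against 749, 273 and 1246 TPM. miR-26b-5p was at 58.4 TPM in F1 NHS, against 457, 1194 and 2699 TPM in F1 Con. miR-26b-3p was at 2287 TPM in F1 NHS, against 441, 22.2 and 415 TPM in F1 Con. For miR-26a-1-3p the F1 NHS library had 2618 TPM, against 89.0, 4785 and 223 TPM in F1 Con. F1 NHS lay outside the F1 Con range for both arms of miR-26b and for miR-26a-2-3p, and within it for the other 2 IDs. Of the 735 IDs, 17.3% lay below all F1 Con libraries and 40.3% above them. The log2 fold changes were -5.01 for miR-26b-5p (SE 1.96), -4.21 for miR-26a-5p (SE 2.27), 3.98 for miR-26a-2-3p (SE 1.75) and 2.38 for miR-26b-3p (SE 1.44), each with an adjusted p of 0.745. None of the 735 IDs was called by edgeR in F1 (0%), with 44 at an unadjusted p under 0.05, and DESeq2 called 0.963%.

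The 5p share of miR-26a was 1.68% in F1 NHS, against 81.7%, 1.73% and 87.9% in F1 Con, so 1 control library had nearly the same low share. The exact permutation p was 0.5. Of 205 names, 26.3% had a 5p share in F1 NHS below all 3 F1 Con libraries. For miR-26b it was 2.49% in F1 NHS, against 50.8%, 98.2% and 86.7% in F1 Con. Here the F1 NHS library was below all 3 controls, with an exact permutation p of 0.25, the smallest that 1 library against 3 allows, and 0.75 after adjustment. The ratio of miR-26a to miR-26b reads was 8.41 in F1 NHS, against 5.11, 4.23 and 3.88 in F1 Con (log2 difference 0.94, exact permutation p 0.25, adjusted 0.3). No F1 value can be had without the tRNA-Ala-high libraries, since the F1 NHS library is one of them. The F1 and F0 effects were compared by the interaction term of the same fit. Its log2 value was 1.27 for miR-26a (SE 0.60, adjusted p 0.361) and 1.44 for miR-26b (SE 0.63, adjusted p 0.353).

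**Figure D4:**
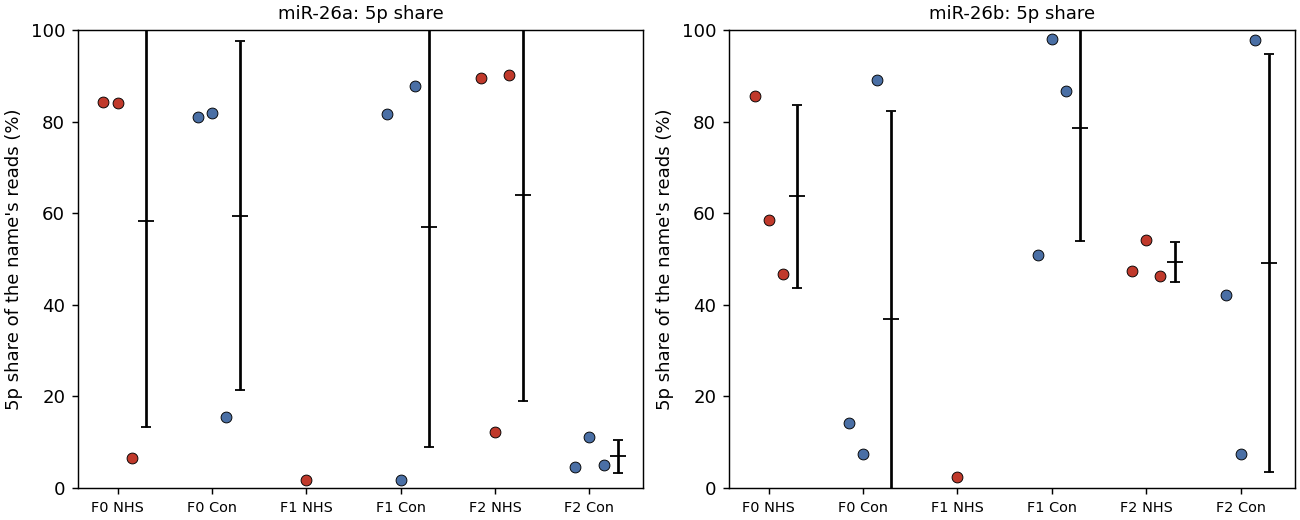
Points are libraries, bars mean ± SD of the groups with 3 libraries, and the vertical axes give the percent of reads on the 5p ID for miR-26a (left) and miR-26b (right). The miR-26a share is either above 81% or below 16% in each library, with 3 low libraries of 3 in F2 Con, whereas the F2 NHS shares of miR-26b lie together at 46.3% to 54.3%.

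F1 Con against F0 Con compares control males of successive generations. The labels give no age at collection, control treatment or batch, so generation cannot be told apart from these. The miR-26a sum was 4586, 5147 and 12099 TPM in F1 Con, against 31808, 14604 and 38294 TPM in F0 Con. All 3 F1 Con values were below all 3 F0 Con values, as they were for 34.5% of the 461 names. In percent of miRNA reads the groups overlapped, at 3.44%, 2.98% and 3.71% in F1 Con and 6.14%, 3.60% and 6.67% in F0 Con. The log2 fold change was -1.06 (SE 0.36) and its adjusted p was 0.0676, just short of the threshold, while DESeq2 gave 0.0328. Scaling by library totals alone gave -1.96 (adjusted p 0.0156), but that scaling moved the median of all names to -0.86, against 0.06 with TMM scaling. Set against the median of all names, the miR-26a sum was at -1.09 by library totals and at -1.12 with TMM. The miR-26b sum was 898, 1216 and 3115 TPM in F1 Con and 5076, 3644 and 6333 TPM in F0 Con, with a log2 fold change of -0.72 (SE 0.38, adjusted p 0.198). Its F1 Con values were all below those of F0 Con in TPM and overlapped them in percent of miRNA reads (0.674% to 0.956% in F1 Con, 0.898% to 1.10% in F0 Con).

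edgeR called 9.11% of the 461 names in this contrast (42 names, 23 higher and 19 lower in F1 Con), and miR-26a and miR-26b were not among them. That count fell to between 6 and 21 when any 1 library of these 2 groups was left out, and DESeq2 called 24.6%. Without the tRNA-Ala-high libraries the log2 fold change of miR-26a was -1.32 (adjusted p 0.0558) and that of miR-26b was -0.80 (adjusted p 0.239). Marker miRNAs of other cells moved with this contrast. Germ cell miRNAs, which belong to the miR-34/449 family and an X-linked testis cluster, summed to 11.1% to 14.0% of miRNA reads in F1 Con and 1.52% to 3.03% in F0 Con. Smooth muscle miRNAs summed to 3.43% to 7.26% in F1 Con and 10.9% to 41.8% in F0 Con. Their part in the miR-26 values was not tested. Of the single IDs, none was called, with log2 fold changes between -2.37 (miR-26b-3p, SE 1.17, adjusted p 0.303) and 0.40 (miR-26b-5p, SE 1.005, adjusted p 0.858). Over the 735 IDs edgeR called 0% here, with 127 at an unadjusted p under 0.05, and DESeq2 called 7.98%. The 5p shares of miR-26a averaged 57.1% in F1 Con and 59.5% in F0 Con (exact permutation p 0.9), and those of miR-26b 78.6% in F1 Con and 36.9% in F0 Con (exact permutation p 0.3, adjusted 0.75).

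In F2, the comparison that singled out miR-26, the miR-26a sum was 22389, 19492 and 20594 TPM in F2 NHS, against 11505, 6853 and 15148 TPM in F2 Con. The F2 NHS values were all higher than those of F2 Con, at 20825 ± 1462 TPM and 11169 ± 4158 TPM (SD, n = 3 each), and as a percent of miRNA reads at 6.12 ± 0.95 in F2 NHS and 4.01 ± 0.95 in F2 Con. Of the 461 names, 12.1% had F2 NHS above F2 Con without overlap in TPM and 5.86% in percent of miRNA reads, and of the 735 IDs 11.7% did in TPM. The log2 fold change of the sum was 0.64 (SE 0.36). For miR-26a-5p it was 4.13 (SE 1.38). That ID held only 4.62% to 11.04% of the miR-26a reads in F2 Con, so the 2 fold changes cannot be compared directly. In mean TPM, miR-26a-5p was at 13658 in F2 NHS and 680 in F2 Con. The means of miR-26a-1-3p were 6035 in F2 NHS and 6673 in F2 Con, and those of miR-26a-2-3p 1132 and 3815. The gain in 5p reads was thus seen in the sum as well. Without the tRNA-Ala-high libraries, which leaves 2 F2 NHS libraries and 1 F2 Con library, the sum was at 0.23 (SE 0.50) and miR-26a-5p at 3.48 (SE 2.32).

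miR-26a-5p was at 20047, 2365 and 18562 TPM in F2 NHS, against 531, 757 and 753 TPM in F2 Con. miR-26a-1-3p was at 992, 15178 and 1934 TPM in F2 NHS, against 946, 5701 and 13372 TPM in F2 Con. miR-26a-2-3p was at 1350, 1949 and 98.1 TPM in F2 NHS, against 10028, 395 and 1023 TPM in F2 Con. F2 NHS replicates 1 and 3 were led by the 5p and replicate 2 by miR-26a-1-3p, and all 3 F2 Con libraries were led by a 3p ID. As a share of miR-26a reads, the 5p made up 89.5%, 12.1% and 90.1% in F2 NHS, against 4.62%, 11.04% and 4.97% in F2 Con. Of 205 names, 6.34% had F2 NHS shares all above those of F2 Con. The lowest F2 NHS share was within 2 points of the highest F2 Con share. Low shares were not limited to F2 Con: F0 NHS replicate 3 (6.44%), F0 Con replicate 3 (15.5%), F1 NHS replicate 2 (1.68%) and F1 Con replicate 2 (1.73%) were also below 20%.

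The miR-26b sum was 2376, 3444 and 5296 TPM in F2 NHS, against 2429, 1350 and 2780 TPM in F2 Con, and the groups overlapped (log2 fold change 0.43, SE 0.37). miR-26b-5p was at 1125, 1869 and 2454 TPM in F2 NHS, against 1023, 100 and 2719 TPM in F2 Con. miR-26b-3p was at 1250, 1574 and 2842 TPM in F2 NHS, against 1406, 1250 and 61.2 TPM in F2 Con. Of the miR-26b reads, 47.4%, 54.3% and 46.3% were 5p in F2 NHS, a narrow span, against 42.1%, 7.43% and 97.8% in F2 Con. miR-26a-5p and miR-26b-5p, which share a seed, thus did not take the same shares of their names in F2. edgeR called 0% of the IDs and 0% of the names in the F2 contrast, with 80 and 68 at an unadjusted p under 0.05, and DESeq2 called 3.85% and 6.58%. Germ cell marker miRNAs summed to 4.34% to 6.71% of miRNA reads in F2 NHS and 9.55% to 15.5% in F2 Con, and epithelial and epididymal miRNAs to 4.85% to 6.46% in F2 NHS and 2.86% to 3.08% in F2 Con. Their part in the miR-26 values was not tested.

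**Figure D5:**
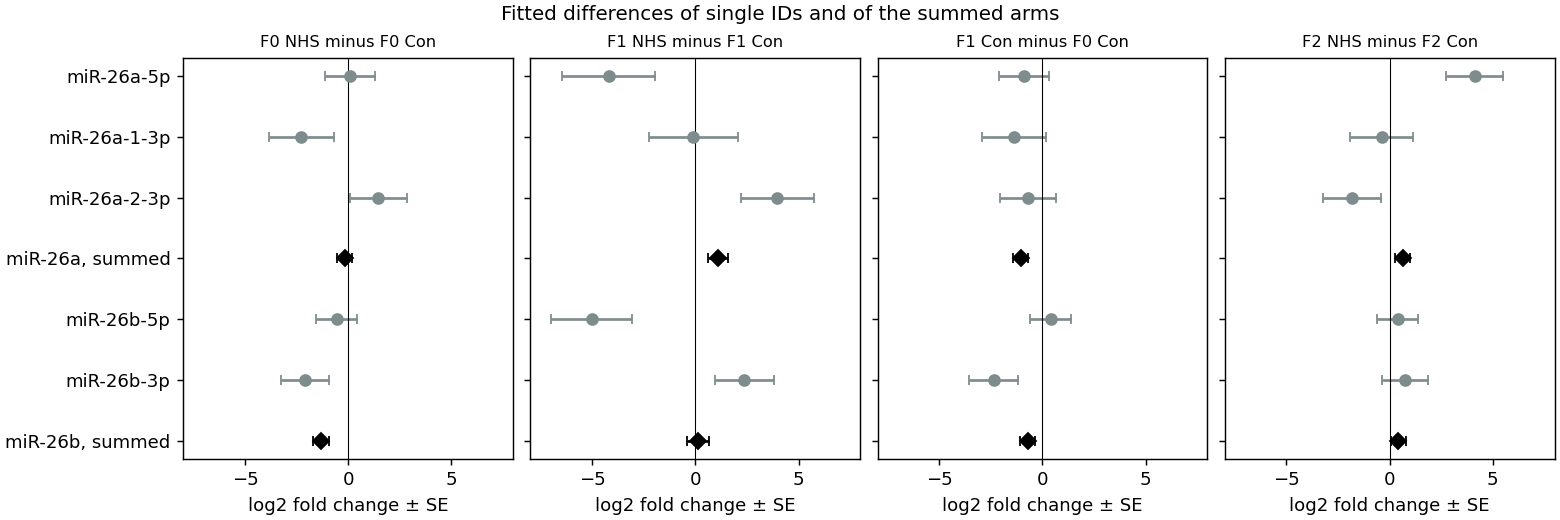
Points are log2 fold changes from edgeR with their SE, grey circles for single IDs and black diamonds for summed arms, in the 4 contrasts, with positive values higher in the first-named group. The error bars of the sums (SE 0.36 to 0.52) are shorter than those of single IDs (SE 1.005 to 2.27), and the miR-26a-5p value of 4.13 in F2 stands beside 0.64 for the miR-26a sum.

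Added by seed, the reads follow the deposited arm assignment. The seed shared by the 5p strands stood at 15590 ± 11433 TPM in F0 NHS and 16768 ± 8446 TPM in F0 Con. It stood at 389 TPM in the F1 NHS library and 6272 ± 6284 TPM in F1 Con (SD, n = 3), with a range of 1283 to 13329 TPM in F1 Con. In F2, as a description, it stood at 4234 to 21172 TPM in F2 NHS and 857 to 3471 TPM in F2 Con. The seed of miR-26a-2-3p and miR-26b-3p stood at 19068 TPM in the F1 NHS library and 295 to 1661 TPM in F1 Con. It stood at 978 to 21624 TPM in F0 NHS and 3259 to 8866 TPM in F0 Con. In F2 it stood at 2601 to 3523 TPM in F2 NHS and 1084 to 11433.5 TPM in F2 Con. The F0 NHS and F2 Con maxima came from F0 NHS replicate 3 and F2 Con replicate 1, tRNA-Ala-high libraries like that of F1 NHS. The seed of miR-26a-1-3p is carried by that ID alone.

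Ordered by mean TPM, the miR-26a sum was highest in F0 Con (28235), followed by F0 NHS (23799), F2 NHS (20825), F1 NHS (19730), F2 Con (11169) and F1 Con (7277). Every neighbouring pair in that order overlapped except F1 NHS and F2 Con. F1 NHS is a single library without a range, and each pair without overlap in this paragraph includes it. In percent of miRNA reads, 39% of the 461 names had F1 NHS below all F1 Con libraries. For the other pairs such a share was not counted. The miR-26b sum ran in the order F0 Con (5018), F2 NHS (3705), F1 NHS (2345), F2 Con (2186), F0 NHS (2023) and F1 Con (1743 TPM). Here too all neighbours overlapped except 1 pair, F2 NHS and F1 NHS (2345 TPM in the F1 NHS library, 2376 TPM in the lowest F2 NHS library). In percent of miRNA reads the order was another. The miR-26a sum was then highest in F2 NHS (6.12%), followed by F0 NHS (5.60%), F0 Con (5.47%), F1 NHS (5.15%), F2 Con (4.01%) and F1 Con (3.38%), again with F1 NHS and F2 Con as the only neighbours that did not overlap. The miR-26b sum ran in the order F2 NHS (1.06%), F0 Con (0.994%), F2 Con (0.785%), F1 Con (0.778%), F1 NHS (0.612%) and F0 NHS (0.460%), and the last 2 steps were without overlap.

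The miRNAs whose summed levels went most closely with each miR-26 were not the same. Over the 16 libraries the log2 CPM of miR-26a correlated best with miR-199b (Pearson r 0.82), miR-146b (0.78, known as a brake on innate immune signalling), miR-96 (0.76, of the miR-183 cluster), miR-3068 (0.72) and miR-200c (0.72, an epithelial miRNA). miR-26b itself was at place 73 of 460 with r 0.36. miR-26b went with miR-98 (r 0.83) and let-7f (0.76), both of the let-7 family, and with miR-1839 (0.78), miR-30c (0.72) and miR-141 (0.72, an epithelial miRNA). The points share library, depth and group, and these values are a description. The 5p share of miR-26a correlated best with that of let-7d (r 0.67), miR-486b (0.56), miR-465c (0.52), miR-466c (0.50) and miR-375 (0.48) among 204 names. Its r with the 5p share of miR-26b was -0.06. The 3p ID of miR-375 held 99.98% to 100% of that name's reads in every library. Its 5p share thus hardly varied, and its r says little about likeness.

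Other miRNAs known, mostly from human cells, to act on Ezh2 (miR-101a, miR-101b, miR-138 and the let-7 family with miR-98) were set beside miR-26, and 13 of the 14 passed the filter. In F0 NHS against F0 Con, 11 had a negative and 2 a positive log2 fold change, 0 were called, and the median was -0.40, against 0.05 over all 461 names. miR-98 was at 148 ± 32.1 TPM in F0 NHS and 378 ± 124 TPM in F0 Con (SD, n = 3 each), with a log2 fold change of -1.36 (SE 0.59, adjusted p 0.519). let-7g was at 4953 ± 1241 TPM in F0 NHS and 10664 ± 4835 TPM in F0 Con, with a log2 fold change of -1.11 (SE 0.50, adjusted p 0.529). The largest value of the list was positive, 1.84 for miR-138 (SE 0.99, adjusted p 0.543). It was at 221 ± 326 TPM in F0 NHS and 46.7 ± 31.7 TPM in F0 Con. In F1 NHS against F1 Con all 13 had a positive value and 0 were called (median 0.74, against -0.04 over all names). Most of the 13 belong to 1 family, let-7 with miR-98, and all were read in the same libraries. Their signs are thus not separate observations, and the share of all names with each sign was not counted. In F2 NHS against F2 Con, 6 were positive and 7 negative, 0 were called, and the median was -0.16, against -0.10 over all names. In F1 Con against F0 Con, 11 were negative and 2 of them were called, where edgeR called 9.11% of all 461 names and DESeq2 24.6%, and the median was -0.31, against 0.06 over all names. let-7e was at 147 ± 127 TPM in F1 Con, against 1124 ± 415 TPM in F0 Con, with a log2 fold change of -2.15 (SE 0.50, adjusted p 0.0253). miR-101a was at 8.29 ± 4.10 TPM in F1 Con, against 82.6 ± 30.0 TPM in F0 Con, with a log2 fold change of -2.50 (SE 0.61, adjusted p 0.0256). TPM is set against all reads of the library, and on that scale the median of all names was -0.86. The fold changes use TMM scaling, so the gaps in TPM are wider than these. The let-7e call was lost without F0 Con replicate 2 or 3 or F1 Con replicate 1 or 2 (adjusted p 0.0596 to 0.0818). The miR-101a call was lost without F0 Con replicate 2 or 3 or any 1 F1 Con library (adjusted p 0.0596 to 0.0883).

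The miR-29 family, which is also known to act on Tet genes and Tdg, had 3 of 3 names tested. In F0 NHS against F0 Con all 3 had negative values, between -0.84 and -0.60, and 0 were called. In F1 NHS against F1 Con, miR-29b (1.34, SE 0.53) and miR-29c (1.13, SE 0.75) had positive values and miR-29a a negative one (-0.20, SE 0.70), and 0 were called. In F2 NHS against F2 Con, 2 were positive and 1 negative, with 0 called and a median of 0.63. The TPM of miR-29c, again set against all reads of the library, was 45.7 ± 12.9 in F1 Con and 450 ± 68.8 in F0 Con. With TMM scaling its log2 fold change in F1 Con against F0 Con was -2.42 (SE 0.59, adjusted p 0.0256). That call too was lost without F0 Con replicate 2 or 3 or any 1 F1 Con library (adjusted p 0.0560 to 0.0883). miR-29a (-1.57) and miR-29b (-1.26) each had an adjusted p of 0.0623, and both were called by DESeq2 (adjusted p 0.0195 and 0.0138). The median of the 3 was -1.57, against 0.06 over all 461 names. F1 Con and F0 Con each enter 2 of these contrasts, so those are not independent of one another.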

How the data were processed

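Small RNA of mouse sperm was read in 18 libraries. The authors deposited 1 table with a list per library, in which, per the file headers, each entry carries its count of reads, a whole number, beside its TPM. The deposited TPM equalled the count per 1000000 reads of the library for 100% of entries. The submitters' processing notes name build mm10. Not given in the sources used here are the aligner, the counting tool and the way reads were assigned to arms. Lists of 2 libraries end before the known miRNAs and were left out. In 3 of the other 16 (F1 NHS replicate 2, F2 NHS replicates 2 and 3) the list ends after the known miRNAs and holds 35.7% to 42.3% of the reads, so each total there comes from counts set against TPM, and the check of TPM shows proportionality alone. Deposited predicted precursors were searched by position and predicted piRNAs by sequence.

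Known miRNA counts were fitted in edgeR 4.0.16 (R 4.3.3) with TMM scaling of the library totals, a quasi-likelihood test and all 6 groups in 1 model, with no replicate block. IDs, or names with arms and copies summed, with at least 1 TPM in at least 3 libraries were kept, which left 735 IDs and 461 names. Benjamini-Hochberg adjustment ran over all of them, with a threshold of 0.05. The procedure was tried on simulated data with large changes in F0 NHS and a smaller spread than that of the single miR-26 IDs. It does not show how well changes in these IDs, or in F1 NHS, would be found. 5p shares and ratios were compared by exact two-sided permutation in scipy 1.17.1. DESeq2 1.42.0, other scalings and filters, the contrast's own groups, a replicate block and leaving out each library were tried as alternatives. The 2 settings on the tRNA-Ala-high libraries, the interaction term and the ratio were added after seeing the data. Sequences were read from RefSeq tables of GRCm38.p6 and positions checked against GENCODE vM21.

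The miRNAs named are the miR-26 IDs, the 5 names closest to each sum in log2 CPM (prior count 1) and the 5 closest to the 5p share of miR-26a, mature miRNAs that share a seed with them, and 2 lists of miRNAs known to act on the same targets. Members and lists were chosen with earlier results of these data known.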

Additional observations from a re-analysis of the deposited data

Results flagged for a closer look

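The difference of the 5p share of miR-26a had opposite signs in F1 and F2. It was -55.4 percentage points between the F1 NHS library and the mean of the 3 F1 Con libraries, and 57.1 points between F2 NHS and F2 Con, and in neither did the groups overlap. In F1 this rests on 1 library at 1.68% beside a control at 1.73%, with overlapping 95% Wilson intervals and an exact permutation p of 0.5, and 26.3% of 205 names lay below all F1 Con libraries in the same way. The F2 values singled out miR-26a, and 6.34% of the 205 names had F2 NHS shares all above F2 Con. The difference between the generations was not tested, and neither value shows a change on its own.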

How the results depend on the processing

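Library totals of 18072900 to 29430555 reads leave little counting error in miR-26. The comparisons rest on few libraries, 1 in F1 NHS and 3 in each other group. Single IDs also varied widely within groups (SD of log2 TPM 1.62 to 2.28). The parts of library number, arm assignment and the tRNA-Ala-high set in the lack of calls were not tested. Neither the miR-26a sum nor the miR-26b sum was called in F0 or F1 in any setting. No setting without F1 NHS replicate 2, or without the tRNA-Ala-high libraries, gives an F1 value, but the term for that set does. For F1 Con against F0 Con, miR-26a was called with library totals as the scale (-1.96) and by DESeq2 (-1.06), and in no other setting. The F1 value of miR-26b turned to -0.045 with a filter of 10 CPM and -0.18 in the groups of the contrast alone, and with 1 library left out it lay between -0.10 and 0.30. The cause was not tested.

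Counts of called miRNAs moved most in F1 Con against F0 Con. Of the IDs, 58 were called by DESeq2, 19 with library totals as the scale, 4 with no filter and 0 to 1 with 1 library left out. Of the summed names, 112 were called by DESeq2, 103 with library totals and 6 to 52 with 1 library left out. In F0, DESeq2 called 1 ID and 3 names, and a term for the tRNA-Ala-high set called 1 ID and 1 name. In F1, DESeq2 called 7 IDs and 6 names, the set term 1 ID and 1 name, and the groups of the contrast alone 1 name.

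Log2 fold changes of single IDs turned their sign in these settings. In F0, miR-26a-5p was at -0.022 with library totals and between -0.58 and 0.40 with 1 library left out. miR-26a-2-3p in F0 was at -1.13 without the tRNA-Ala-high libraries and between -0.74 and 2.46 with 1 library left out. miR-26b-5p in F0 lay between -1.07 and 1.14 with 1 library left out. In F1, miR-26a-1-3p was at 0.0435 with relative log expression scaling, 0.62 with library totals, 0.085 with no filter, 0.0435 with DESeq2, 2.38 with the set term, and between -0.65 and 3.70 with 1 library left out. In F1 Con against F0 Con, miR-26b-5p was at -0.61 with library totals, and with 1 library left out it lay between -0.10 and 2.20, miR-26a-1-3p between -5.18 and 0.58 and miR-26a-2-3p between -1.22 and 0.20. The difference of the 5p share of miR-26a in F0 became 9.28 points with reads pooled over the group and 36.0 without the tRNA-Ala-high libraries, and lay between -23.1 and 24.8 with 1 library left out. In F1 Con against F0 Con it became 11.9 points with pooled reads and 8.82 without those libraries, and lay between -24.3 and 25.3 with 1 library left out. Keeping only IDs that name an arm changes no share, since all 5 do. The F1 value of miR-29a turned to 0.17 with library totals.

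No pairing by replicate number was seen. Of 30 pairs of libraries with the same number, 10 correlated above 0.1 in their deviations from the group means, with a median of 0.012. Of 60 pairs with different numbers, 21 did, with a median of -0.012. With a replicate block, F0 values were -0.15 for miR-26a and -1.34 for miR-26b (edgeR adjusted p 0.475), miR-26b-5p in F0 turned to 0.24 and miR-29a in F1 to 0.029, and 34 summed names were called in F1 Con against F0 Con. No miR-26 call changed.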

Other observations

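The search of predicted small RNAs for the miR-26 loci covered predicted miRNA precursors and predicted piRNAs only. Of 7299 predicted miRNA precursors, 0 overlapped a miR-26 hairpin and 0 held a mature miR-26 sequence. Whether known miRNA loci were left out of that prediction was not checked, so no conclusion is drawn from these counts. Of 801902 predicted piRNAs, 0 lay wholly within a miR-26 hairpin sequence, and those that overlap one in part were not counted.

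Over 205 names, the median 5p share was 14.6% to 19.7% in NHS libraries and 14.8% to 23.0% in Con libraries. The 5p share of reads pooled over these names was 22.0% to 36.5% in NHS libraries and 17.8% to 46.3% in Con libraries. The library at 1.68% for miR-26a, F1 NHS replicate 2, had a median of 15.3% and a pooled share of 34.4%, both inside the range of the other libraries.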
